A study of Mus musculus with 10 samples.

Results

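The interferon response genes are 55 genes with symbols of genes or gene families that interferons induce or that carry interferon signals. They are among 12160 genes listed in a table of RNA sequencing of pancreatic epithelium from mice with pancreatitis. The 55 were chosen by a rule on gene symbols, which was set with earlier results of these data known. Going by name, the rule also took Isg20l2, named for its likeness to Isg20, and 3 corepressors that bind Irf2. The symbols taken were those of the interferon receptors (Ifnar, Ifngr), the signal transducers downstream of them (Stat2), the numbered interferon regulatory factors and their binding partners (Irf), the RNA sensors (Ddx58, Dhx58, Ifih1), and the Oas, Ifit (with Ifitm), Isg, Ifi, Gbp and Irgm families with Rsad2, Usp18, Bst2, Parp9 and Parp14. Mx1 and Mx2 also met the rule by name but were not among the listed genes.

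Libraries were made from 100 sorted cells each by Smart-Seq2, a full-length cDNA protocol for very small inputs. The 5 tuft libraries hold cells negative for the leukocyte surface marker Cd45, positive for the epithelial marker EpCAM and positive for Siglec f, the surface protein used to enrich tuft cells. The 5 non-tuft libraries hold Cd45-neg, EpCAM+, Siglec f-neg cells, so that every other epithelial cell type of the organ could enter them. All mice were genetically wild type males given repeated caerulein, a cholecystokinin analog that injures acinar cells, and the strain is given as CD1 in the protocol and as Mixed in the sample labels. Each tuft library came from an individual mouse, and the study describes both populations as sorted from a common set of mice without saying that libraries with the same number share a mouse. Untreated mice were not analysed here, so every difference described is between cell populations of injured pancreas.

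Type I interferons signal through the Ifnar1 and Ifnar2 receptor pair and type II interferon through Ifngr1 and Ifngr2. The receptors activate STAT transcription factors, and a complex that holds Stat2 and Irf9 binds interferon-stimulated response elements in the promoters of target genes. Those targets include enzymes that detect or degrade viral RNA, membrane proteins that hinder virus entry, and GTPases that act on intracellular pathogens. Tuft cells are rare chemosensory epithelial cells that form in the injured pancreas during the change of acinar cells to a duct-like state.

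Promoter sequences are shown for 5 members because they carry the core of the response element and yet belong to genes with very different values in these libraries. Oas1a and Oas1g had the largest rises of all members, Oas1c lies in the same gene cluster and was at or near 0 in most libraries, and Isg15 and Ifit1 are standard interferon target genes that did not pass the test. Each line gives the 250 bases before the annotated start on the gene's own strand, from RefSeq on GRCm38.p6. Capitals mark matches, on either strand, to the letters GAAA, any 2 bases and GAAA again. The windows are chr5:120907526-120907775 (minus strand) for Oas1a, chr5:120887614-120887863 (minus) for Oas1g, chr5:120812515-120812764 (minus) for Oas1c, chr4:156200819-156201068 (minus) for Isg15 and chr19:34640639-34640888 (plus) for Ifit1.
Oas1a: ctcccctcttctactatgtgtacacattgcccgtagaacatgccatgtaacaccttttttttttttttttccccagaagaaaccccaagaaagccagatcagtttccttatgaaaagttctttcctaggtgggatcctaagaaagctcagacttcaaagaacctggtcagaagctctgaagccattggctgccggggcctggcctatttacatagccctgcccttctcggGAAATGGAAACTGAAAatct
Oas1g: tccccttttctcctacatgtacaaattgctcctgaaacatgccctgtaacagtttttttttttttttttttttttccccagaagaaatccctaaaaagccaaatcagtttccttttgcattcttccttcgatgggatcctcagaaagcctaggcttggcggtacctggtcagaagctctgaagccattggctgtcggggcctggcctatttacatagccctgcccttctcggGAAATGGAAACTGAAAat
Oas1c: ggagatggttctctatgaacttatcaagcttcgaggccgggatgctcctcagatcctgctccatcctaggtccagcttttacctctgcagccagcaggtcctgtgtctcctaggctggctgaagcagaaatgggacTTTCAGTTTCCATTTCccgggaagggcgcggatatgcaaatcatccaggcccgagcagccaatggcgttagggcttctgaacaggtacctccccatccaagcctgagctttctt
Isg15: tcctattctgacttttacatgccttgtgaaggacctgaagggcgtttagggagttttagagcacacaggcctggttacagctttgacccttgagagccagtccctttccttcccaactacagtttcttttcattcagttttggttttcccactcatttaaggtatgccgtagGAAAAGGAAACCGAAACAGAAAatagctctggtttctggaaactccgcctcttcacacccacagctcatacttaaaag
Ifit1: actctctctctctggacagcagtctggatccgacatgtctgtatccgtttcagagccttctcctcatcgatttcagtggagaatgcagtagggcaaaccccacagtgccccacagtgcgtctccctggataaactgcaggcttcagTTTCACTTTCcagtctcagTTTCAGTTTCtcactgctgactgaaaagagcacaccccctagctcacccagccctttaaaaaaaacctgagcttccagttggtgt

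Overlapping matches began 20 and 14 bases before the start in Oas1a and 18 and 12 bases before it in Oas1g. Those of Oas1c, on the opposite strand, lay farther away, with their first bases 114 and 108 bases before the start. Isg15 held 3 overlapping matches at 78, 72 and 66 bases, and Ifit1 held 2 on the opposite strand at 104 and 85 bases. The Oas1a and Oas1g windows were 82.8% identical over 256 aligned columns, whereas Oas1a and Oas1c were 49.0% identical over 300. Of the 55 members, 41 had a promoter in the RefSeq table, and 17 of these (41.5%) held this repeat of GAAA. It was held by 3.09% of the 9112 listed genes with a promoter and, counted by promoter rather than gene, by 2.98% of all 32851. The matches were spread over genes that passed the test and genes that did not. They were found in 2 of the 4 members with a promoter and a significant rise, 1 of the 3 with a significant fall and 14 of the other 34. The pattern TTCNNNGAA, the core of gamma-activated sites, reads the same on both strands. It was found in 10 of the 41 members (24.4%), in 7.43% of the listed genes with a promoter and in 7.02% of all promoters. Both patterns occurred together in 109 promoters of the table. A match is a description of these letters only.

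Expression is given as log2(RPKM + 1) after the authors' quantile normalization, and a difference is the tuft mean minus the non-tuft mean on that scale, with its standard error. Adding 1 before the logarithm understates the change of genes with low values. A member was called when the adjusted p of limma's test over all 12160 genes was under 0.05 and the difference exceeded a fold of 4. By this measure 5 members were higher in the tuft libraries, namely Oas1a, Oas1g, Irf7, Ifi27l2b and Oasl2, and 2 were lower, namely Ifitm3 and Isg20. The 7 called members were 12.7% of the 55, against 8.31% of all listed genes. Those called higher were 9.09% against a background of 4.32%, and those called lower 3.64% against 3.99%. Without the fold threshold, 7 members were higher and 3 lower, which is 18.2% against 11.7% of all genes (6.19% higher and 5.55% lower), and the additions were Oas2, Ifi27 and Ifitm2.

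The other 45 members did not reach an adjusted p under 0.05. At an unadjusted p under 0.05 the count was 19 of 55 (34.5%), against 25.1% of all genes. The median difference was 0.46 over the members and 0.02 over all listed genes, with 36 members above 0 and 19 below. The groups did not overlap for 9 members (16.4%), 6 with tuft above and 3 with tuft below, against 11.4% of all genes (6.31% above and 5.12% below). For each of the 9 the two-sided exact permutation test gave p = 0.00794, the smallest that the 252 splits of 5 against 5 allow. Groups of 5 without overlap always give this p, so it adds nothing to the lack of overlap. In these libraries, fewer cells of a type and less RNA per cell cannot be told apart.

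Many values were low. In each library the lowest value of the table was 0, except 0.17 in non-tuft library 2, and a member at that value is described as at the floor. Of the 55 members, 18 were above the floor in all 10 libraries and 37 were at the floor in at least 1. Of all 12160 listed genes, 6103 were above the floor in all 10 and 6057 were at it in at least 1. Each non-tuft library had 25 to 45 members above the floor and each tuft library 39 to 49. The 25 were in non-tuft library 2, where 3753 of all listed genes were at the floor. The other non-tuft libraries had 1442 to 2395 listed genes at the floor and the tuft libraries 1538 to 2764. Gapdh, which nearly every cell uses, was listed at 0 in 3 tuft libraries and 1 non-tuft library and at no more than 2.67 in the rest. A listed 0 is therefore given only as that. Actb was at 9.85 to 10.97 in tuft and 7.93 to 9.27 in non-tuft libraries.

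**Figure D1:**
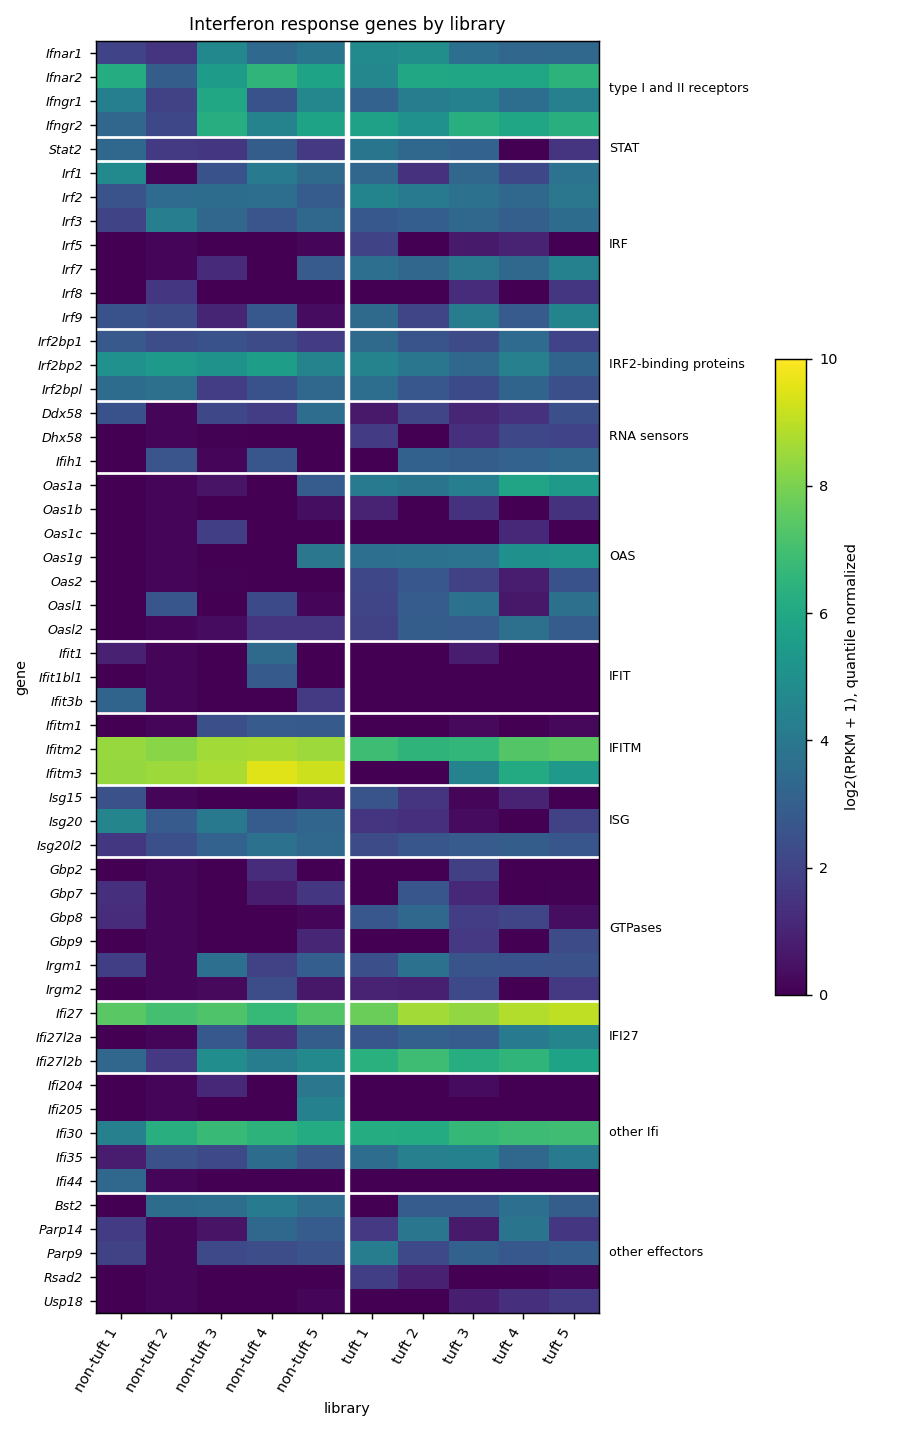
Level of 53 of the 55 interferon response genes (vertical axis, grouped by role) in each of the 10 libraries (horizontal axis), coloured by log2(RPKM + 1) from 0 to 10. The rows of Oas1a, Oas1g and Irf7 are darker on the non-tuft side, with non-tuft library 5 the lightest of those 5 libraries, and the row of Ifitm3 is bright in all non-tuft libraries and at 0 in tuft libraries 1 and 2.

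**Figure D2:**
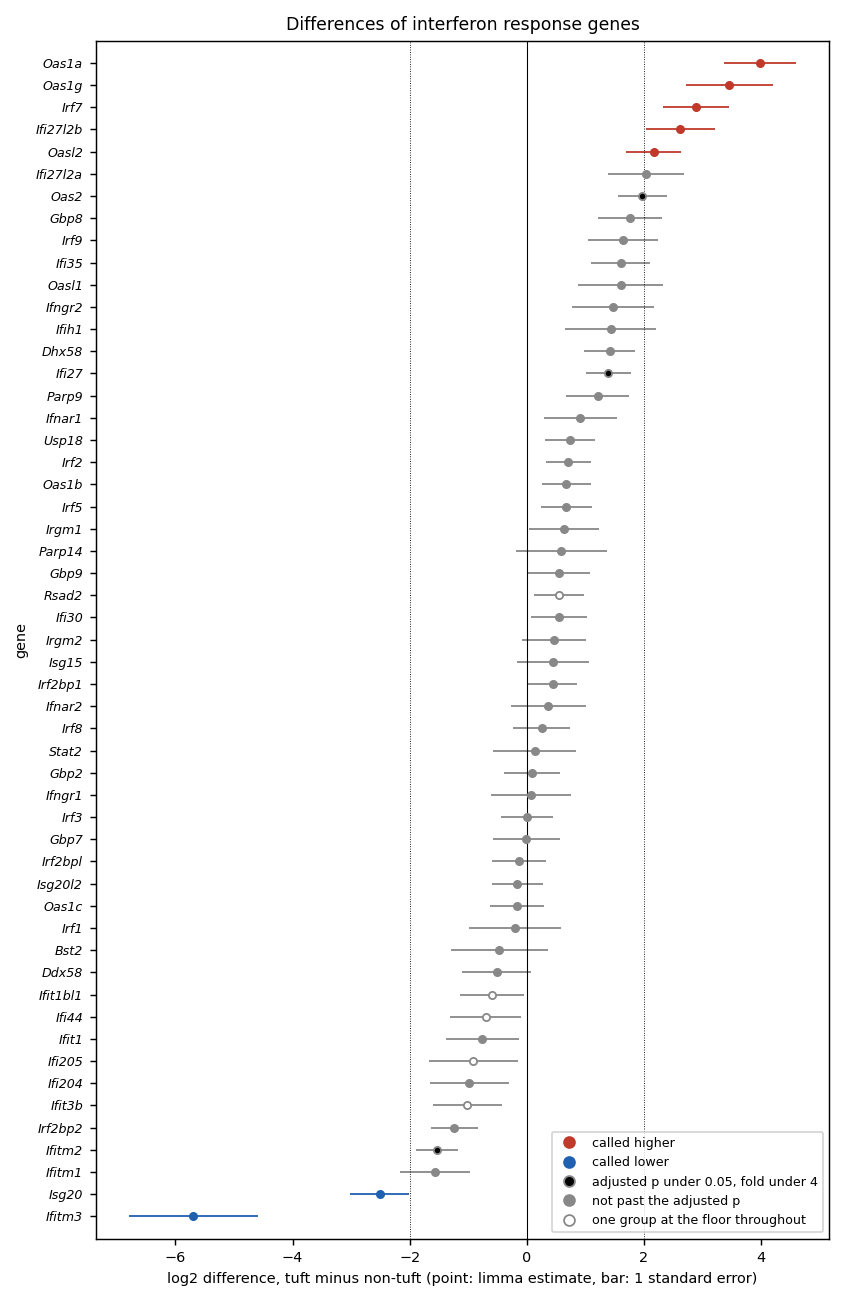
Difference of 53 of the 55 members (tuft minus non-tuft, log2 scale) with a bar of 1 standard error from limma, ordered by size, with dotted lines at a fold of 4. The differences run from -5.69 for Ifitm3 to 3.98 for Oas1a, 5 members are called higher and 2 lower, and 11 of the 19 differences below 0 among all 55 turned positive after centring each library on its ribosomal protein genes.

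The scale of the comparison mattered for the direction of small differences. When each library was centred on the median of its 75 ribosomal protein genes, the median difference of all listed genes moved from 0.02 to 0.84 and that of the members from 0.46 to 1.29. Members called were then 14 higher and 1 lower instead of 5 and 2, and the share of called genes that were higher rose from 52.0% to 85.7% over all genes. Every difference moved up by the same amount under centring, from 3.98 to 4.80 for Oas1a and from -1.54 to -0.71 for Ifitm2. Rises therefore grew and only falls could change sign, so the size of a small difference depended on the scale. Values below are on the deposited scale.

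None of the 4 receptor genes passed limma's test or had an unadjusted p under 0.05, and all were above the floor in every library. Ifnar2, the chain that binds type I interferon with high affinity, was at 6.21, 2.95, 5.49, 6.55 and 5.82 in non-tuft libraries 1 to 5 and at 4.62, 5.96, 5.89, 5.93 and 6.46 in tuft libraries 1 to 5. The groups overlapped, with the lowest value in non-tuft library 2, and the difference of 0.37 ± 0.64 (limma, adjusted p = 0.770) turned negative when non-tuft libraries 2 and 5 were left out. Ifnar1, its partner chain, was listed at 2.02, 1.53, 4.65, 3.42 and 3.88 in the non-tuft and 4.75, 4.95, 3.67, 3.31 and 3.38 in the tuft libraries, a difference of 0.91 ± 0.62 (adjusted p = 0.400).

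Ifngr1, the ligand-binding chain of the type II receptor, read 4.33, 1.96, 5.96, 2.50 and 4.62 in the non-tuft and 3.13, 4.20, 4.41, 3.60 and 4.36 in the tuft libraries, with the whole tuft range inside the non-tuft range. Its difference was 0.06 ± 0.68 (limma, adjusted p = 0.969). Ifngr2, the signalling chain, had 3.28, 2.15, 6.22, 4.47 and 5.82 in the non-tuft and 5.73, 5.06, 6.28, 5.89 and 6.28 in the tuft libraries. All 5 tuft values of Ifngr2 were at least 5.06, whereas the non-tuft values spanned 2.15 to 6.22. The difference was 1.46 ± 0.70 (adjusted p = 0.216). Transcripts for both receptors were thus present in both populations, and no difference in their level was detected at this number of libraries.

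Stat2, the transducer specific to type I and type III signals, was at 3.39, 1.70, 1.60, 2.93 and 1.67 in the non-tuft and 3.90, 3.37, 3.14, 0 and 1.55 in the tuft libraries, with tuft library 4 listed at 0. The groups overlapped, and the difference was 0.13 ± 0.71 (limma, adjusted p = 0.935).

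Irf7, the interferon regulatory factor that is itself induced by interferon and amplifies the response, was the only one of 8 listed Irf factors to pass the test. It was listed at 0, 0.17, 1.22, 0 and 2.88 in the non-tuft libraries and at 3.67, 3.29, 4.02, 3.36 and 4.38 in the tuft libraries. The groups did not overlap, and non-tuft library 5 came nearest to the tuft values. The difference was 2.89 ± 0.56 (limma, adjusted p = 0.00463) and lay between 2.67 and 3.40 when each library was left out in turn. The gene lies at chr7:148448605-148452380 on NCBIM37, where its span overlaps Phrf1 on the other strand, and the library protocol does not mark strand. None of the 50-base windows of its annotated coding transcripts was shared with another gene.

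Irf9, the DNA-binding partner of Stat2, was at 2.51, 2.30, 1.05, 2.74 and 0.32 in the non-tuft and 3.46, 2.08, 4.20, 2.86 and 4.52 in the tuft libraries. Tuft library 2 lay within the non-tuft range, and the difference of 1.64 ± 0.60 did not pass (limma, adjusted p = 0.101). Irf2 (0.71), Irf3 (0.01), Irf1 (-0.21), Irf5 (0.67) and Irf8 (0.25) had adjusted p from 0.290 to 0.996. The haematopoietic factor Irf8 was at the floor in 4 non-tuft and 3 tuft libraries and did not exceed 1.58. Of the 3 corepressors that bind Irf2, Irf2bp2 had the largest difference, -1.24 ± 0.40 (adjusted p = 0.0658), and Irf2bp1 and Irf2bpl differed by 0.44 and -0.14.

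The 3 cytoplasmic RNA sensors were not called by limma, and 1 of them had an unadjusted p under 0.05. Ifih1, the gene of MDA5, which detects long double-stranded RNA, was listed at 0, 2.63, 0.13, 2.67 and 0 in the non-tuft and 0, 3.11, 2.96, 3.15 and 3.38 in the tuft libraries. Tuft libraries 2 to 5 were the highest, tuft library 1 was at 0, and the non-tuft libraries fell into low and high values. The difference was 1.43 ± 0.77 (limma, adjusted p = 0.278). Dhx58, the gene of the regulatory sensor LGP2, was at 0 to 0.17 in the non-tuft libraries and at 0 to 2.15 in the tuft libraries, a difference of 1.41 ± 0.44 (adjusted p = 0.0563). Ddx58, the gene of RIG-I, differed by -0.52 ± 0.59 (adjusted p = 0.636).

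The OAS family gave the largest rises. Its founding enzymes bind double-stranded RNA and make 2'-5' oligoadenylates, although not every family member has that activity. Of 7 listed members, 3 were called higher, 4 had an adjusted p under 0.05 in that direction, against 4.32% and 6.19% of all listed genes, and none was called lower. Only the difference of Oas1c changed sign with ribosomal centring. Oas1a was listed at 0, 0.17, 0.53, 0 and 2.90 in non-tuft libraries 1 to 5 and at 4.12, 3.86, 4.26, 5.83 and 5.39 in tuft libraries 1 to 5. All tuft values were above all non-tuft values. The difference was 3.98 ± 0.62 (limma, adjusted p = 0.00108) and stayed between 3.69 and 4.52 with each library left out.

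Oas1g was at 0, 0.17, 0, 0 and 3.96 in the non-tuft and 3.65, 3.79, 3.81, 5.00 and 5.17 in the tuft libraries. Non-tuft libraries 1 to 4 were at the floor and non-tuft library 5 lay above tuft libraries 1, 2 and 3, so the groups overlapped. The difference was 3.46 ± 0.74 (limma, adjusted p = 0.00777), and the two-sided exact permutation test gave p = 0.0317. Oas1a and Oas1g share much sequence. Of the 50-base windows of their annotated coding transcripts, 53.0% of those of Oas1a and 50.1% of those of Oas1g occurred in the other gene, so reads of one may have been divided between the genes and neither value is certain alone. The sum of both on the linear RPKM scale was 0, 0.249, 0.441, 0 and 21.0 in non-tuft libraries 1 to 5 and 27.9, 26.3, 31.3, 87.0 and 75.9 in tuft libraries 1 to 5. The summed values did not overlap.

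Oas2 was listed at 0, 0.17, 0.06, 0 and 0 in the non-tuft and 2.16, 2.72, 1.92, 0.77 and 2.52 in the tuft libraries. Every tuft value exceeded every non-tuft value, with tuft library 4 the lowest of its group. The difference of 1.97 ± 0.42 passed the adjusted p (0.00739, limma) and fell just short of a fold of 4. Oasl2, an OAS-like protein with ubiquitin-like domains, was at 0, 0.17, 0.32, 1.56 and 1.50 in the non-tuft and 1.98, 2.94, 2.89, 3.67 and 2.90 in the tuft libraries. Its groups did not overlap, and the difference was 2.16 ± 0.47 (adjusted p = 0.00819). Oasl2 lay close to the fold threshold, and the difference was 1.99 without non-tuft library 1 and 1.96 without tuft library 4, both under it.

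Oasl1, a translational repressor of Irf7, had 0, 2.68, 0, 2.24 and 0.15 in the non-tuft and 2.10, 2.90, 3.72, 0.66 and 3.70 in the tuft libraries and did not pass (difference 1.60 ± 0.72, limma, adjusted p = 0.186). Non-tuft libraries 2 and 4 were within its tuft range. Oas1b reached at most 1.47 and differed by 0.67 (adjusted p = 0.348). Oas1c was above the floor in non-tuft library 3, at 1.86, and tuft library 4, at 1.17, only (difference -0.17, adjusted p = 0.860). The genes Oas2 (chr5:121180342-121199862), Oas1c (chr5:121250102-121262523), Oas1b (chr5:121262644-121274186), Oas1g (chr5:121326151-121337622) and Oas1a (chr5:121346265-121357536) lie on 1 stretch of chromosome 5 on NCBIM37, with Oasl2 (chr5:115346943-115362243) and Oasl1 (chr5:115373249-115387924) elsewhere on that chromosome. Genes of the stretch therefore differed among themselves, with Oas1a and Oas1g at high values in the tuft libraries and Oas1c at the floor in 4 of 5.

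Non-tuft library 5 stood nearest to the tuft libraries for Oas1a, Oas1g and Irf7, and it also carried tuft and leukocyte transcripts. The linear RPKM values of 10 tuft markers summed to 193, 521, 6.39, 0.33 and 484 in non-tuft libraries 1 to 5, against 3946 to 12049 in the tuft libraries. The sum of the 7 OAS genes was 0, 6.17, 3.35, 5.69 and 23.2 in the same non-tuft libraries and 38.5, 45.0, 54.4, 101 and 101 in tuft libraries 1 to 5. Non-tuft library 5 had the highest OAS sum of its group, and in non-tuft library 2, which had the highest tuft marker sum, only Oasl1 of the OAS genes was above the floor. Without these 2 libraries, a choice made after seeing the data, the members called higher numbered 5 and those called lower 1. The part of tuft transcripts in the non-tuft values was not tested.

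**Figure D3:**
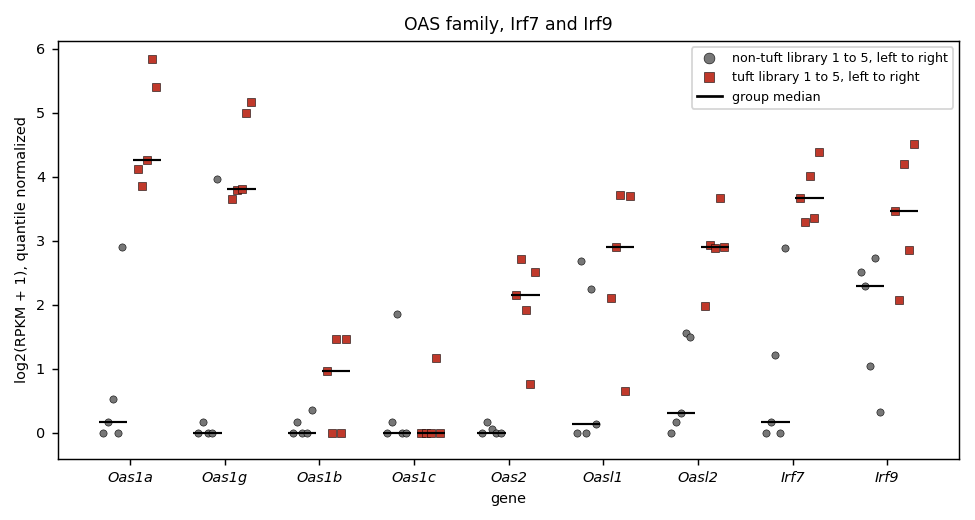
Level (log2(RPKM + 1), vertical axis) of the 7 OAS genes, Irf7 and Irf9 in each library, with non-tuft libraries as grey circles and tuft libraries as red squares, each numbered 1 to 5 from left to right, and lines at the group medians. For Oas1a the tuft points run from 3.86 to 5.83 above every non-tuft point, while for Oas1g the point of non-tuft library 5, at 3.96, sits among the tuft points.

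In the IFIT and IFITM families no member was called higher. The IFIT proteins bind viral RNA with unusual ends, and their genes are among the most strongly induced by interferon in many cell types. None of the 3 listed, Ifit1, Ifit1bl1 and Ifit3b, passed limma's test, and none had an unadjusted p under 0.05. Ifit1 was listed at 0.92, 0.17, 0, 3.47 and 0 in the non-tuft and 0, 0, 0.77, 0 and 0 in the tuft libraries (difference -0.76 ± 0.62, limma, adjusted p = 0.498), and the sign turned with ribosomal centring. Ifit1bl1 and Ifit3b stayed at the floor throughout the tuft group, and in the non-tuft libraries Ifit1bl1 reached 2.81 in library 4 and Ifit3b reached 3.20 in library 1 and 1.71 in library 5. No fold is given for these.

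Ifitm3, a membrane protein that blocks virus fusion in endosomes, had the largest difference of all members in size and was lower in the tuft libraries. It was at 8.43, 8.52, 8.74, 9.51 and 9.23 in the non-tuft libraries and at 0, 0, 4.49, 6.11 and 5.38 in the tuft libraries. All non-tuft values lay above all tuft values, and tuft libraries 1 and 2 were listed at 0. The difference was -5.69 ± 1.10 (limma, adjusted p = 0.00436), and it ranged from -6.42 to -4.89 with each library left out. Without non-tuft libraries 2 and 5 the difference was -5.70 ± 1.54 with an adjusted p of 0.0574, so the size was kept and the standard error of the smaller comparison was larger. Ifitm3 lies at chr7:148195485-148196669 on NCBIM37, and 10.0% of its 50-base windows also occur in other genes.

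Ifitm2, its neighbour in sequence, was at 8.45, 8.22, 8.63, 8.68 and 8.54 in the non-tuft and 6.89, 6.49, 6.63, 7.33 and 7.49 in the tuft libraries. The groups did not overlap, and the difference of -1.54 ± 0.36 had an adjusted p of 0.0136 (limma) with a fold under 4. Ifitm1 was at 0, 0.17, 2.43, 2.87 and 2.82 in the non-tuft and 0, 0, 0.26, 0 and 0.20 in the tuft libraries, and its difference of -1.57 ± 0.60 did not pass (adjusted p = 0.121). The 3 IFITM genes kept a negative difference under ribosomal centring, at -4.87 for Ifitm3, -0.71 for Ifitm2 and -0.74 for Ifitm1, although the adjusted p of Ifitm2 was then 0.238. Their linear sum was 663 to 1143 in the non-tuft and 89.0 to 228 in the tuft libraries.

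Of the ISG genes, Isg20, an exonuclease that degrades single-stranded RNA, was called lower. It was at 4.55, 2.86, 4.06, 2.92 and 3.25 in the non-tuft and 1.49, 1.39, 0.29, 0 and 1.93 in the tuft libraries, without overlap. The difference was -2.51 ± 0.51 (limma, adjusted p = 0.00554). Isg15, the ubiquitin-like modifier that is a standard marker of an interferon response, did not pass the test. It was listed at 2.48, 0.17, 0, 0 and 0.37 in the non-tuft and 2.58, 1.49, 0.18, 0.99 and 0 in the tuft libraries, and the difference was 0.44 ± 0.61 (adjusted p = 0.699). Non-tuft library 1 and tuft library 1 had its highest values. Isg20l2, a ribosome biogenesis exonuclease named for its likeness to Isg20, differed by -0.16 (adjusted p = 0.858). With ribosomal centring Isg20 kept its sign but was not called, and Isg20l2 turned positive.

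**Figure D4:**
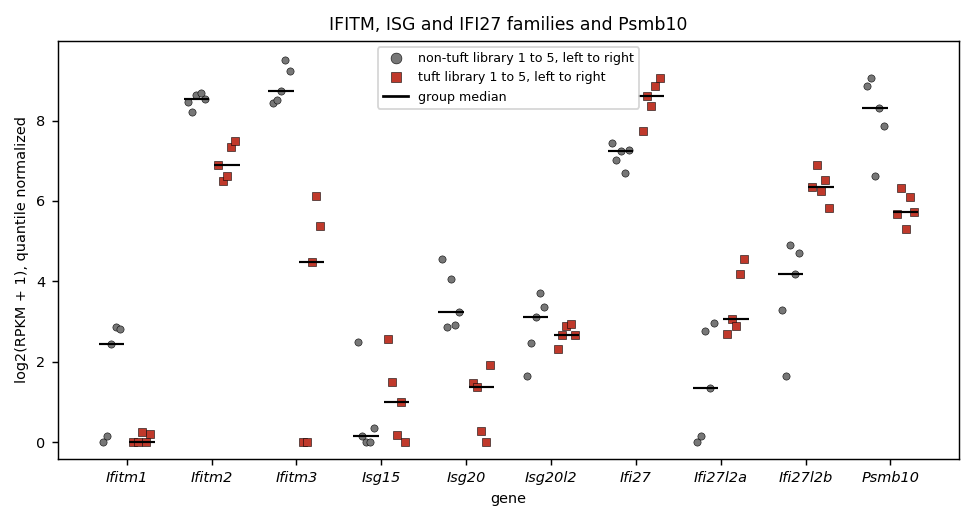
Level (log2(RPKM + 1), vertical axis) of the IFITM, ISG and IFI27 genes and Psmb10 in each library, with symbols, order and median lines as in the plot of the OAS genes. Ifitm3, Ifitm2 and Isg20 have all non-tuft points above all tuft points, Ifi27 and Ifi27l2b have the reverse order, and Isg15 overlaps with no value above 2.58.

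The IFI27 family comprises small hydrophobic proteins induced by type I interferon. Ifi27l2b was at 3.29, 1.65, 4.89, 4.19 and 4.72 in the non-tuft and 6.35, 6.90, 6.25, 6.52 and 5.82 in the tuft libraries, without overlap. The difference was 2.62 ± 0.58 (limma, adjusted p = 0.00981). Ifi27 was one of the most abundant members in both groups, at 7.43, 7.03, 7.25, 6.69 and 7.27 in the non-tuft and 7.75, 8.62, 8.36, 8.85 and 9.05 in the tuft libraries. Every tuft value was above every non-tuft value, and the difference of 1.39 ± 0.38 had an adjusted p of 0.0297 with a fold under 4. That adjusted p rose to as much as 0.0762 when tuft library 2, 3, 4 or 5 or non-tuft library 4 was left out, and it was 0.0622 with the replicate number as a block.

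Ifi27l2a was listed at 0, 0.17, 2.76, 1.36 and 2.97 in the non-tuft and 2.69, 3.07, 2.90, 4.18 and 4.56 in the tuft libraries. Non-tuft libraries 3 and 5 fell within its tuft range, and the difference of 2.03 ± 0.65 narrowly missed (limma, adjusted p = 0.0627). With the replicate number as a block its adjusted p was 0.0357 and it was called. Ifi27l2a and Ifi27l2b overlap on the same strand of chromosome 12, where Ifi27l2b spans chr12:104680379-104695433 on NCBIM37. Of the 50-base windows of their transcripts, 40.8% of those of Ifi27l2a and 14.8% of those of Ifi27l2b occurred in the other, so the division of reads between them is uncertain. All 3 family members had positive differences, and each kept that sign under ribosomal centring.

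The 6 interferon-induced GTPases, which act on vacuoles and membranes of intracellular pathogens, gave no call, and 1 had an unadjusted p under 0.05. This was Gbp8, at 0 to 1.28 in the non-tuft and 0.37 to 3.36 in the tuft libraries, with a difference of 1.76 ± 0.54 (limma, adjusted p = 0.0524, and 0.0482 with the replicate number as a block). Irgm1, an immunity-related GTPase of the autophagy system, was at 0.17 to 3.63 and 2.42 to 3.73 (difference 0.63, adjusted p = 0.558). Gbp2, Gbp7, Gbp9 and Irgm2 did not exceed 2.68 in any library and had adjusted p from 0.568 to 0.994. All 6 were at the floor in at least 1 library.

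Among the other Ifi genes, Ifi35, a partner of the adaptor Nmi, differed by 1.60 ± 0.50 (limma, adjusted p = 0.0559), with 0.80 to 3.52 in the non-tuft and 3.36 to 4.38 in the tuft libraries. Ifi30, the lysosomal thiol reductase GILT, was abundant in both groups, at 4.36 to 6.76 and 6.15 to 6.92 (difference 0.55, adjusted p = 0.524). The DNA sensors Ifi204 and Ifi205 had their highest values in non-tuft library 5, at 3.95 and 4.39, and Ifi205 was at the floor in the other 9 libraries. Their coding transcripts also share 50-base windows with other genes, 28.3% of those of Ifi204 and 49.5% of those of Ifi205. Ifi44 was above the floor in non-tuft library 1 only, at 3.33.

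The 5 remaining effectors were not called, and 1 of them, Parp9, had an unadjusted p under 0.05. Parp9 and Parp14, ADP-ribosyltransferase family proteins that act on interferon signalling, differed by 1.21 ± 0.53 and 0.59 ± 0.78 (limma, adjusted p = 0.176 and 0.687). Bst2, the gene of tetherin, which holds budding virus at the cell surface, was at 0 in library 1 of each group and at 3.52 to 4.07 in the other non-tuft and 2.89 to 3.65 in the other tuft libraries. Usp18, which removes Isg15 from proteins and restrains receptor signalling, reached 1.72 in the tuft and no more than 0.17 in the non-tuft libraries (difference 0.73, adjusted p = 0.315). Rsad2, the gene of viperin, did not leave the floor in the non-tuft group and was above it in 3 tuft libraries, at 1.86, 0.91 and 0.15 in libraries 1, 2 and 5.

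The rest of the pathway was read from 4 gene lists that hold no member of the 55. None of the 21 interferon genes on the first was among the listed genes, so the ligands were not analysed here. Of the 149 genes on all 4 lists 92 were listed, and of these 6 were called higher and 2 lower. These 8 were 8.7% of the 92, close to the 8.31% of all listed genes. Those called higher were 6.52% against 4.32% of all listed genes, and those called lower 2.17% against 3.99%. By list, 1 of 12 receptor and kinase genes, 0 of 17 nucleic acid sensing genes and 5 of 63 other induced genes were higher, and both lower genes were in the last list. For the sensing list, limma gave an unadjusted p under 0.05 for 5 of the 17, against 25.1% of all listed genes. An adjusted p under 0.05 was found for Tank alone, against 11.7% of all listed genes (difference 1.48 ± 0.42, adjusted p = 0.0364, fold under 4, and adjusted p = 0.0613 with the replicate number as a block).

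Ptpn6, the phosphatase SHP-1, which restrains cytokine receptor signalling, had the largest rise of these genes. It was at 1.84, 4.03, 0.01, 1.97 and 4.62 in the non-tuft and 6.71, 7.17, 7.99, 6.92 and 7.99 in the tuft libraries, without overlap (difference 4.87 ± 0.75, limma, adjusted p = 0.00106). Cd47, the surface signal that inhibits phagocytosis, was at 5.45, 6.79, 6.79, 3.89 and 6.70 in the non-tuft and 8.32, 7.93, 8.60, 8.15 and 8.41 in the tuft libraries (difference 2.36 ± 0.56, adjusted p = 0.0140). Both kept an adjusted p under 0.05 with each library left out. The difference of Cd47 fell to as little as 1.85, under a fold of 4, so its call was not kept in every such fit.

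Igtp, Pml and Mov10 had smaller and less stable rises. Igtp, the immunity-related GTPase Irgm3, was at 0, 0.17, 0.07, 0 and 0.09 in the non-tuft and 2.64, 0, 2.50, 2.34 and 3.62 in the tuft libraries, with tuft library 2 at 0 (difference 2.15 ± 0.57, limma, adjusted p = 0.0250). Pml, the organiser of nuclear bodies, was at 2.50, 0.17, 0.15, 2.22 and 2.96 in the non-tuft and 4.14, 4.39, 3.51, 3.12 and 4.02 in the tuft libraries (difference 2.23 ± 0.60, adjusted p = 0.0267). Mov10, an RNA helicase that restricts retroelements, was at 0.76, 0.17, 2.62, 3.21 and 2.30 in the non-tuft and 3.34, 4.19, 4.31, 3.76 and 3.61 in the tuft libraries (difference 2.03 ± 0.57, adjusted p = 0.0347). Pml and Mov10 had all tuft values above all non-tuft values. The call was lost in 7 of the 10 fits with a library left out for Igtp and in 6 each for Pml and Mov10.

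Psmb10, an interferon-induced catalytic subunit of the immunoproteasome, was lower in the tuft libraries. It was at 8.85, 9.05, 6.63, 8.30 and 7.86 in the non-tuft and 5.67, 6.32, 5.32, 6.09 and 5.73 in the tuft libraries, without overlap (difference -2.31 ± 0.49, limma, adjusted p = 0.00706). Slfn9, a Schlafen family gene, was at 4.34, 6.21, 4.31, 4.75 and 5.42 in the non-tuft and 0, 5.03, 3.58, 0 and 0.17 in the tuft libraries. Tuft libraries 1, 4 and 5 were near 0 while tuft library 2 lay in the non-tuft range, and the difference of -3.25 ± 0.94 (adjusted p = 0.0389) lost its call in 8 of the 10 fits with a library left out. With ribosomal centring limma called none of the 92 lower, and 2 had an unadjusted p under 0.05 in that direction. The spans of Psmb10 and Ptpn6 each overlap an annotated gene on the other strand, and without strand the reads of such pairs cannot be told apart.

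By tuft and acinar markers the sorted populations matched their labels in the main. All 10 tuft markers were called higher and 8 of 10 acinar markers lower in the tuft libraries. The tuft markers include Siglecf, the gene of the protein used for the sort, so its rise was fixed by the design. Acinar transcripts were still present there, with linear sums of 668 to 62358 against 63826 to 97049 in the non-tuft libraries. Tuft library 4 had the highest of its group. Of 7 islet markers 2 were called lower in the tuft libraries, and of 7 ductal markers 1. Islet sums ran from 2.36 in non-tuft library 4 to 21583 in non-tuft library 1, and were 0.48 to 30.1 in the tuft libraries. Ductal sums were 621 to 3720 in the non-tuft and 381 to 634 in the tuft libraries. Of 26 leukocyte markers 12 were listed, and 3 of them, Ptprc (the gene of Cd45), Bst1 and Klrb1c, were called higher in the tuft libraries although the sort took Cd45-neg cells. The leukocyte sums were 44.8 to 193 for tuft and 1.06 to 140 for non-tuft libraries, where library 5 had the highest, with the B cell genes Cd79a at 5.23 and Cd79b at 6.22. In tuft libraries 1 to 5 Cd79b was at 4.38, 0, 3.15, 3.95 and 3.85. The macrophage genes Lyz2 and Csf1r reached 4.92 and 2.69 in tuft library 3. In the non-tuft group Lyz2 reached 3.86 in library 4 and Csf1r 1.72 in library 2, and neither gene passed limma's test (adjusted p = 0.747 and 0.891). Cd3g, a T cell gene, was at 0 in 4 tuft libraries and Flt3, a dendritic cell gene, in all of them. None of the 8 eosinophil markers was listed. Fibroblast and endothelial sums were 641 in non-tuft library 5 and 182 in tuft library 5, and no more than 23.1 in the others. The part of these transcripts in the interferon gene values was not tested.

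**Figure D5:**
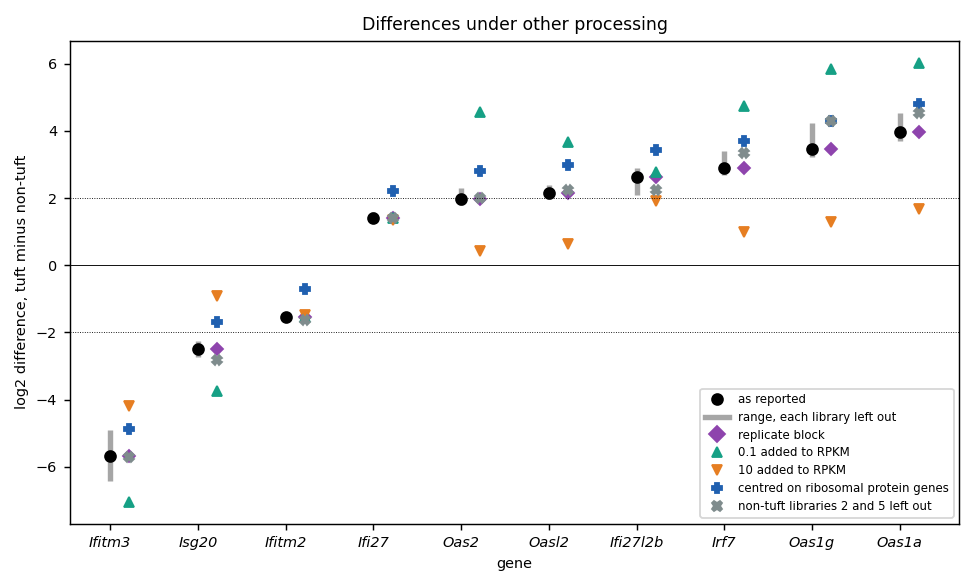
Difference (tuft minus non-tuft, log2 scale, vertical axis) of the 10 members with an adjusted p under 0.05, as reported (black points), with the range when each library was left out (grey bars) and under 5 other settings (coloured symbols), and dotted lines at a fold of 4. Every symbol stays on the side of 0 of its black point, and with 10 added to the RPKM only Ifitm3 remains beyond the dotted lines.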

How the data were processed

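RNA was measured by Smart-Seq2 in 10 libraries of 100 sorted cells each, 5 tuft and 5 non-tuft, grouped and numbered by their titles. Single-end reads of 50 bp were aligned by the authors with HISAT2 on mm9, and RPKM came from StringTie and Ballgown. Genes whose RPKM varied by less than 1 (variance) were dropped by the authors before log2 and quantile normalization (preprocessCore). The table deposited holds log2(RPKM + 1) values of 12160 genes. Tool versions are not given in the sources used here. The deposited table also holds the authors' fold ratio, p-value and false discovery rate for tuft against non-tuft cells, which were not used. Read counts were not analysed here, so library depth is unknown and no counting interval is given. The number of libraries limits the precision.

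The members and gene lists were chosen with earlier results of these data known, so no p is given over a list. Differences were fitted over all listed genes with limma 3.58.1 (lmFit, eBayes; R 4.3.3), without covariates, and adjusted by the Benjamini-Hochberg method. Calls needed an adjusted p below 0.05 together with a fold above 4. The fit was tested on simulated data. For single genes, an exact two-sided permutation test used the 252 splits. The text gives values in every library for members with an adjusted p under 0.05, for the receptors, Stat2, Irf7, Irf9, Isg15 and Ifih1, and for called pathway genes. Others are given by range, and values of Ifitm1, Ifit1, Oasl1 and Ifi27l2a in every library were added after they were seen. Some genes that this choice selects are not reported here, and they remain in the counts. Gene positions came from NCBIM37, which is mm9, for 51 members, with Ifi27, Ifit3b, Ifit1bl1 and Irf2bpl not matched. Shared 50-base windows were counted between annotated coding transcripts, and 10 members shared over 10% of theirs. Promoters came from RefSeq on GRCm38.p6, and 14 members were not matched. No coordinate was converted between builds. Other steps used matplotlib 3.10.9, scipy 1.17.1, pandas 2.3.3 and numpy 2.4.6 under Python 3.11.15. Alternatives were the replicate number as a block, 0.1 or 10 added in place of 1, centring on 75 ribosomal protein genes, testing only genes with a mean log2 value of 2 or more, trend and robust eBayes, other thresholds, and each library left out. A floor of 0 in all libraries and the removal of non-tuft libraries 2 and 5 were added after seeing the data.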

Additional observations from a re-analysis of the deposited data

Results flagged for a closer look

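Within each group of 5 libraries, a value was taken as standing apart when its gap to the nearest other, divided by the range of the group, exceeded Dixon's critical value of 0.71. The lowest value of a library, 0.17 in non-tuft library 2 and 0 in the others, was counted as 0 for this, so that highest below means highest above the floor. This was so for 29 of 105 groups of values tested. The rate of about 1 in 20 for this critical value assumes normal values without ties. Many groups here were tied at the floor, so the count cannot be set against that rate. In 16 of the 29 the value was the highest and the other 4 libraries were at the floor, where the gap equals the range however small the value.

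Non-tuft library 5 was highest for Oas1a at 2.90, Oas1g at 3.96, Ifi204 at 3.95, Ifi205 at 4.39, Gbp9 at 1.06, Oas1b at 0.36, Irf5 at 0.18 and Usp18 at 0.13. This library also had the highest leukocyte marker sum of its group, 140, and one of the 2 highest tuft marker sums, 484. Non-tuft library 4 was highest for Ifit1 at 3.47, Ifit1bl1 at 2.81, Irgm2 at 2.38 and Gbp2 at 1.27. Non-tuft library 1 was highest for Ifi44 at 3.33, Isg15 at 2.48 and Gbp8 at 1.28, and lowest for Ifi30 at 4.36 and Bst2 at 0. Non-tuft library 3 was highest for Oas1c at 1.85, Dhx58 at 0.07 and Oas2 at 0.062, and non-tuft library 2 was highest for Irf8 at 1.58 and lowest for Parp9 at 0.17, its floor.

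Among the tuft libraries, library 3 was highest for Gbp2 at 1.91, Ifit1 at 0.77 and Ifi204 at 0.30. Tuft library 2 was highest for Irgm1 at 3.73, tuft library 4 was highest for Oas1c at 1.17, and tuft library 1 was lowest for Ifih1 and Bst2, both at 0.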

How the results depend on the processing

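Members called higher in the tuft libraries by limma numbered 5 as reported, 8 with 0.1 added to the RPKM, 14 with ribosomal centring and 0 with 10 added, where 14 had an unadjusted and 7 an adjusted p under 0.05 but no rise reached a fold of 4. With each library left out they numbered 4 to 6. Members called lower numbered 2 as reported and with each library left out, and 1 each with 10 added, with centring and without non-tuft libraries 2 and 5. The median difference over the members was 1.29 with centring and 0.33 to 0.54 with each library left out. Other pathway genes called higher numbered 6 as reported, 3 with 10 added and without non-tuft libraries 2 and 5, 2 at an adjusted p under 0.01, 18 with centring and 3 to 7 with each library left out. Those called lower numbered 2 as reported, 1 with 0.1 or 10 added, without non-tuft libraries 2 and 5 and at an adjusted p under 0.01, 0 with centring (2 at an unadjusted p under 0.05), and 1 to 2 with each library left out. The causes were not tested. With the replicate number as a block, members called numbered 6 higher and 2 lower, the addition being Ifi27l2a. Without a fold threshold, Gbp8 also passed the adjusted p under the block, while Ifi27 and Tank no longer did. Same-numbered libraries had correlations of their deviations from the group means of 0.0619 to 0.241, and differently numbered ones of -0.174 to 0.139. Not every library correlated best with its own number, and no source used here states that a number is a shared mouse.

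Signs turned only for small differences that did not pass the test. With centring values became 0.063 for Ifit1, 0.12 for Ifi44, 0.23 for Ifit1bl1, 0.31 for Ddx58, 0.35 for Bst2, 0.62 for Irf1, 0.65 for Oas1c, 0.66 for Isg20l2, 0.69 for Irf2bpl and 0.81 for Gbp7. Without non-tuft libraries 2 and 5 they became -0.31 for Ifnar2, 0.22 for Irf2bpl, -0.044 for Gbp2, -0.25 for Stat2, -0.33 for Ifngr1 and 0.050 for Gbp7. With 0.1 added they became 0.10 for Irf1, -0.052 for Gbp2 and -0.36 for Stat2, with 10 added -0.11 for Ifngr1, 0.039 for Gbp7 and -0.037 for Irf3, and with the floor at 0 the value was 0.023 for Gbp7. With each library left out, differences ranged from -0.25 to 0.66 for Ifnar2, -1.21 to 0.15 for Bst2, -0.47 to 0.050 for Isg20l2, -0.40 to 0.19 for Oas1c, -0.43 to 0.040 for Irf2bpl, -0.92 to 0.24 for Irf1, -0.29 to 0.34 for Gbp2, -0.24 to 0.73 for Stat2, -0.41 to 0.59 for Ifngr1, -0.49 to 0.19 for Gbp7 and -0.26 to 0.29 for Irf3.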
